A study of Mus musculus with 36 samples.

Results

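Inner root sheath genes were followed through the healing of mouse skin wounds. The set was 10 named genes of the 55414 listed in each count file, chosen by symbol: the type I keratins Krt25, Krt26, Krt27 and Krt28, the type II keratins Krt71, Krt72, Krt73 and Krt74, trichohyalin (Tchh) and the peptidylarginine deiminase Padi3. All 10 symbols were found. RNA was measured in 36 skin libraries of a study whose title concerns clearing senescent cells that express p21 at a high level. There were 2 arms of wounds, labelled P and PD with no key to either name, and the genotype, strain and age of the mice are not given in the sources used here. Arm P had 5 wounds at day 2 after injury, 5 at day 4 and 6 at day 12, arm PD had 5, 6 and 6 at the same days, and 3 samples of unwounded skin carried no arm label. Because the labels do not say which samples came from separate animals, the p-values measure only the spread between these samples, which may be technical.

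The inner root sheath is the sleeve of hardened cells that surrounds and moulds the growing hair shaft. It is built only while a follicle is growing a hair, and it breaks down in the upper follicle so that the shaft can emerge alone. Type I keratins pair with type II keratins to make the filaments of its cells, trichohyalin embeds and joins those filaments, and deiminases such as Padi3 convert arginines of trichohyalin to citrulline, which prepares it for crosslinking by transglutaminases. KRT25, KRT27, KRT28 and KRT71 are made in all 3 layers of the sheath (Henle layer, Huxley layer and cuticle), KRT74 mainly in the Huxley layer, and KRT26, KRT72 and KRT73 in the cuticle.

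In GRCm39 with the GENCODE vM39 annotation, the 4 type I genes lie next to each other on the minus strand of chromosome 11, from 99206342 to 99265735, and the 4 type II genes lie on the minus strand of chromosome 15, from 101642384 to 101710802. Tchh lies on the plus strand of chromosome 3 (93349637 to 93356384) and Padi3 on the minus strand of chromosome 4 (140512672 to 140537960). Krt74 is annotated as a transcribed unitary pseudogene, so its values are levels of a transcript and not of a protein. The 250 bases before the annotated start were searched on both strands for letters that transcription factors of the follicle or the basal machinery can bind. The 4 promoters below are shown because they carry both TATAAA (the TATA box) and AGATAA (letters bound by GATA factors, the family of the sheath regulator Gata3), although they belong to different chromosomes and both keratin types. Sequences are written 5′ to 3′ on the gene's own strand, and capitals mark every match to the motifs searched.
Krt25 (chr11:99213778-99214027, minus strand): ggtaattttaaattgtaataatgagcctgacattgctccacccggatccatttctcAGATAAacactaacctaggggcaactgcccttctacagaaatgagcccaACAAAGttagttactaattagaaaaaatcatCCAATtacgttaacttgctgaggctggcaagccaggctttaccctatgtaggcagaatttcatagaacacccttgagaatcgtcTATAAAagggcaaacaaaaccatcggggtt
Krt27 (chr11:99241931-99242180, minus strand): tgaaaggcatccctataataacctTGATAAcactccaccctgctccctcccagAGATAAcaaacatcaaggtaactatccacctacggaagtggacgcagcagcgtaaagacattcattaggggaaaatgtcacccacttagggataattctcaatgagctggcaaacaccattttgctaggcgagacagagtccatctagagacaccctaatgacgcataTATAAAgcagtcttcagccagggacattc
Krt71 (chr15:101651545-101651794, minus strand): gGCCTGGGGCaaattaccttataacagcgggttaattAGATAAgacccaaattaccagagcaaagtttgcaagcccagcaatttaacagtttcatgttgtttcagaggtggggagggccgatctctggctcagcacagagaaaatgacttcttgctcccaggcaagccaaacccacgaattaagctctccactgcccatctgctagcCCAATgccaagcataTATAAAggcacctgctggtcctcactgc
Krt73 (chr15:101710803-101711052, minus strand): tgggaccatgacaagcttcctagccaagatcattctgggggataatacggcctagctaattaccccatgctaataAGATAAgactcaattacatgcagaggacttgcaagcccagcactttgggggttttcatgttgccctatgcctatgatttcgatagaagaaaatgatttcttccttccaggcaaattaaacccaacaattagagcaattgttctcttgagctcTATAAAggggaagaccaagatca
In each of these promoters TATAAA began between 23 and 30 bases before the start, and AGATAA between 175 and 213 bases before it, both on the gene's strand. TATAAA was found in 7 of the 10 promoters (Krt25, Krt26, Krt27, Krt28, Krt71, Krt72 and Krt73), and 11.9% of 21770 protein-coding promoters of that length held it. The only match in Krt72 lay 195 to 190 bases before the start on the opposite strand, not where it lay in the promoters shown. AGATAA was found in 5 of 10, Tchh being the fifth, against 9.6% of all promoters. The other letters searched were TGATAA (1 of 10 against 7.63%), the LEF/TCF letters CTTTGA (2 of 10 against 14.1%) and CTTTGT (1 of 10 against 15.9%), the AP-2 letters GCCNNNGGC (2 of 10 against 13.2%) and CCAAT (5 of 10 against 36.5%). In Tchh a CTTTGA match overlapped the AGATAA match. A match is a description of the letters, and neighbouring genes of a cluster share ancestry, so the counts are not independent.

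The libraries held between 11.807 M and 58.376 M counts each (median 30.397 M), and levels are given in CPM, the counts of a gene per M counts of its TMM-scaled library. Summed epidermal keratinocyte markers (Krt5, Krt14, Krt1, Krt10, Krt16 and Krt6b) stood between 2641 and 55886 CPM in every library, and summed skeletal muscle markers also reached 1366 to 72056 CPM, highest in unwounded skin. One library stood apart for the genes described here, P day 4 replicate 3, which held all 10 at the level of day 12 wounds. The edgeR calls at day 4 and the likeness of other genes are therefore given with and without it. It also adds to the spread shared by all comparisons, and p-values and SEs at other days come from fits that keep it unless stated.

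Inner root sheath transcripts were close to nothing in unwounded skin and in wounds of days 2 and 4, and abundant in all 12 wounds of day 12. Summed over the 10 genes, unwounded skin held 7.66, 6.06 and 9.06 CPM, P day 2 wounds 3.07 to 6.5 CPM and PD day 2 wounds 3.93 to 7.26 CPM. The sum was 7.1 to 20.6 CPM in P day 4 wounds other than replicate 3, 9820 CPM in replicate 3, and 4.87 to 44 CPM in PD day 4 wounds. At day 12 it ran from 591 to 12633 CPM in P (median 8153) and from 598 to 12908 CPM in PD (median 3228). The lowest day 12 wound of either arm was thus above every unwounded, day 2 and day 4 library but P day 4 replicate 3. In bulk tissue, fewer cells of a type and less RNA per cell cannot be told apart.

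**Figure D1:**
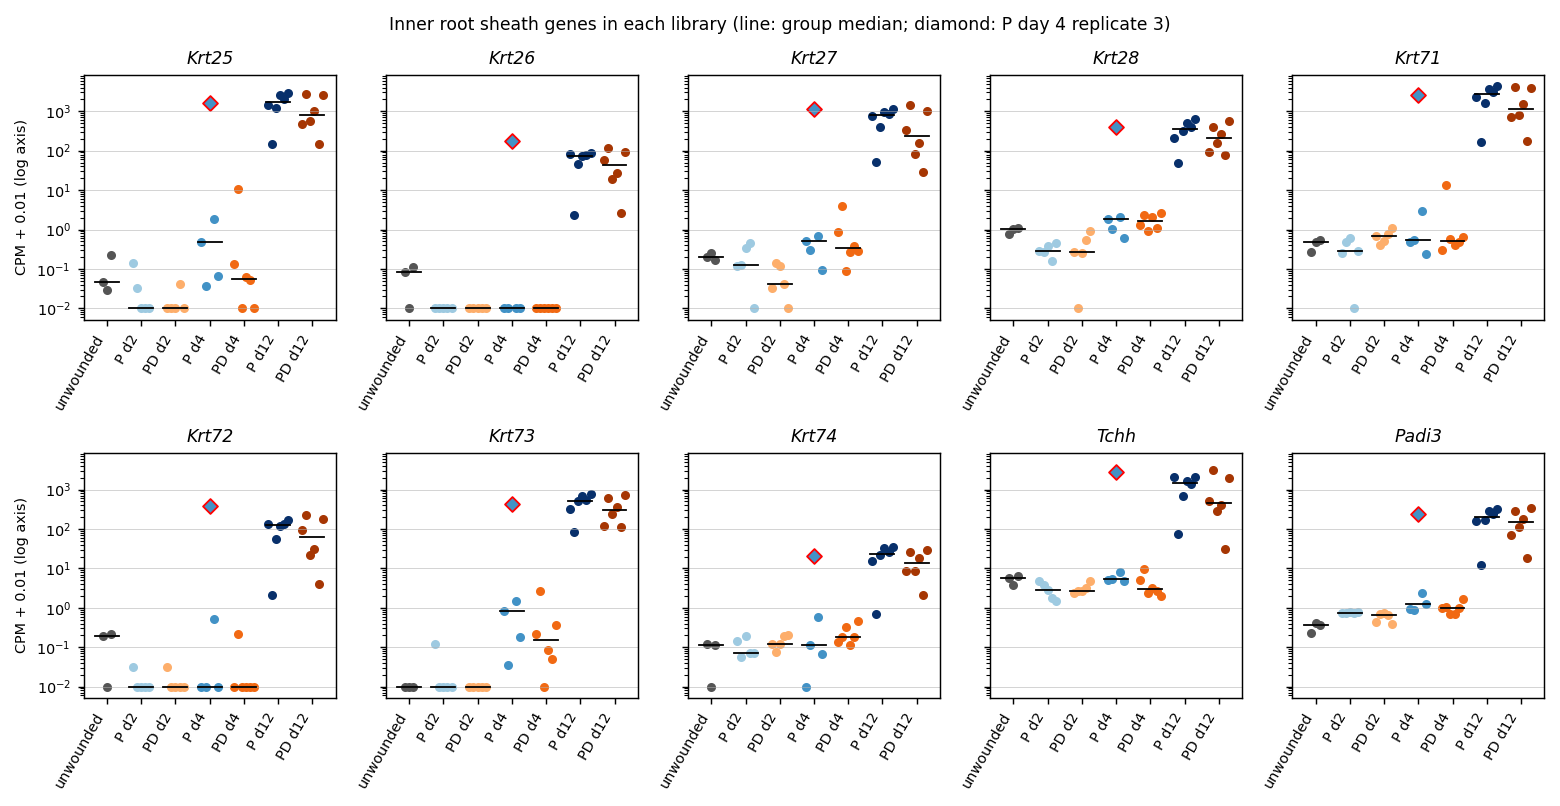
Level of each of the 10 genes in every library, in CPM with 0.01 added so that 0 can be drawn on the log axis. Points are libraries grouped by arm and day, lines are group medians, and the red-edged diamond is P day 4 replicate 3. All 12 day 12 libraries lie above the unwounded and day 2 libraries in every panel, and the diamond lies among or above them.

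Among the type I keratins, Krt25 had the highest level per kilobase of exon at day 12. It stood at 0.0374, 0.0199 and 0.21 CPM in unwounded skin (6 counts in all). P day 2 wounds held 0.13, 0.0231, 0, 0 and 0 CPM, and P day 4 wounds 0.484, 0.0263, 1623, 1.85 and 0.0575 CPM. Before day 12 only P day 4 replicate 3 and, far below it, PD day 4 replicate 2 at 10.8 CPM stood out. At day 12 the lowest, median and highest values were 146, 1755 and 2901 CPM in P and 144, 786 and 2670 CPM in PD. No day 12 wound overlapped unwounded skin, and the ranges of the arms overlapped almost entirely. The share of all genes whose groups do not overlap is not given here. Statements of overlap, here, below and in the figures, therefore only describe levels. The edgeR log2 change from unwounded skin was 14.55 ± 3.43 (SE) in P (adjusted p = 0.00109) and 14.07 ± 3.39 in PD (adjusted p = 0.00136). Each SE of a log2 change, here and below, was worked back from the F statistic of the edgeR test and is approximate.

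Krt27 and Krt28, the other type I keratins found throughout the sheath, rose likewise. Krt27 was at 0.187, 0.239 and 0.157 CPM in unwounded skin and reached 52.8, 803 and 1157 CPM (lowest, median, highest) in P day 12 and 29.6, 242 and 1433 CPM in PD day 12. Krt28 was at 0.747, 1.04 and 1.1 CPM in unwounded skin and reached 48.4, 348 and 625 CPM in P day 12 and 79.5, 213 and 581 CPM in PD day 12. Both genes were higher in every day 12 wound than in any unwounded sample, by a log2 change of 11.72 ± 2.78 for Krt27 and 8.50 ± 1.81 for Krt28 in P (edgeR adjusted p = 0.00115 and 0.000381). Krt26, a keratin of the sheath cuticle, had 4 counts over the 3 unwounded samples and 0 counts in all 10 day 2 wounds, all 6 PD day 4 wounds and the P day 4 wounds other than replicate 3. It reached 2.36, 74.3 and 85.3 CPM in P day 12 and 2.62, 42.8 and 118 CPM in PD day 12. Against PD day 4, set at 3 counts over the group, Krt26 in PD day 12 was at least 2709-fold higher.

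The type II keratins followed the same course. Krt71, a type II keratin of the same sheath layers as Krt25, stood at 0.262, 0.478 and 0.524 CPM in unwounded skin. P day 4 wounds held 0.484, 0.525, 2607, 3 and 0.23 CPM. Day 12 values were 170, 2689 and 4462 CPM in P and 172, 1158 and 4083 CPM in PD, the lowest again being P replicate 2 and PD replicate 5. Its log2 change from unwounded skin was 12.56 ± 2.92 in P and 12.10 ± 2.88 in PD (edgeR adjusted p = 0.000937 and 0.00119).

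Krt73, a keratin of the sheath cuticle, had 0 counts in all 3 unwounded samples, which allows up to 3 counts over the group or 0.0312 CPM. P day 2 wounds held 0.108, 0, 0, 0 and 0 CPM, and all 5 PD day 2 wounds held 0. P day 4 wounds held 0.807, 0.0263, 441, 1.5 and 0.172 CPM, so every one of them had counts. Krt73 was the single gene of the 10 still called at P day 4 against unwounded skin without replicate 3 (adjusted p = 0.0425), with a mean of 0.626 CPM over the other 4 wounds, at least 20-fold above the unwounded floor. At day 12 it reached 82.8, 527 and 777 CPM in P and 114, 310 and 729 CPM in PD, at least 15564-fold and 11647-fold above that floor. Krt72, also of the cuticle, reached 2.07, 126 and 169 CPM in P day 12 and 3.95, 63.1 and 223 CPM in PD day 12 from 9 counts in unwounded skin. Krt74, a transcript of the Huxley layer in other species, reached 0.678, 23.5 and 35.5 CPM in P and 2.09, 13.6 and 29 CPM in PD, from 5 counts in unwounded skin.

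Tchh and Padi3, the matrix protein and the enzyme that modifies it, had counts in every unwounded, day 2 and day 4 library. Tchh stood at 5.83, 3.89 and 6.29 CPM in unwounded skin. It held 4.78, 3.72, 2.82, 1.78 and 1.52 CPM in P day 2, and 4.97, 5.43, 2795, 8.13 and 4.68 CPM in P day 4. Day 12 wounds held 74.5, 1506 and 2139 CPM in P and 31.2, 461 and 3072 CPM in PD. Every day 12 wound was above the unwounded, day 2 and day 4 libraries other than P day 4 replicate 3, of which PD day 4 replicate 2 was highest at 9.56 CPM. The log2 change of Tchh from unwounded skin was the smallest of the 10, 7.97 ± 2.00 in P and 7.62 ± 1.97 in PD (edgeR adjusted p = 0.00189 and 0.00249). Padi3 stood at 0.224, 0.399 and 0.367 CPM in unwounded skin and between 0.713 and 0.785 CPM in all 5 P day 2 wounds, and those ranges did not overlap. It reached 11.9, 202 and 318 CPM in P day 12 and 18.6, 147 and 332 CPM in PD day 12, a log2 change of 9.17 ± 1.80 in P (edgeR adjusted p = 0.000151).

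All 10 genes rose from unwounded skin to day 12 in both arms, where 23.7% of 20657 tested genes were called higher in P and 24.2% in PD. Krt26 was the least secure of them in fits that kept P day 4 replicate 3: with any 1 of the 3 unwounded samples left out its adjusted p was 0.0575 to 0.08 in P and 0.0598 to 0.0839 in PD, leaving 9 of 10 called. With all 36 libraries the largest edgeR adjusted p of the 10 genes was 0.0195 in P and 0.0209 in PD. Without P day 4 replicate 3 it was 0.000317 in P and 0.000376 in PD. The fitted log2 changes of the 9 genes other than Krt73 ran from 7.97 to 14.55 in P and from 7.62 to 14.07 in PD. The median over the 10, with Krt73 at its bound, was 10.09 in P and 9.93 in PD, and the median over all tested genes was 0.104 and 0.0918. The 2 comparisons share the unwounded samples. All 10 passed the filter on low counts, and Krt25, Krt26, Krt27, Krt72, Krt73 and Krt74 had no unwounded library above its minimum, so passing is not support. Against PD day 4, all 10 rose in PD day 12 by log2 changes from 6.23 to 13.69 (15.7% of genes were called higher).

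**Figure D2:**
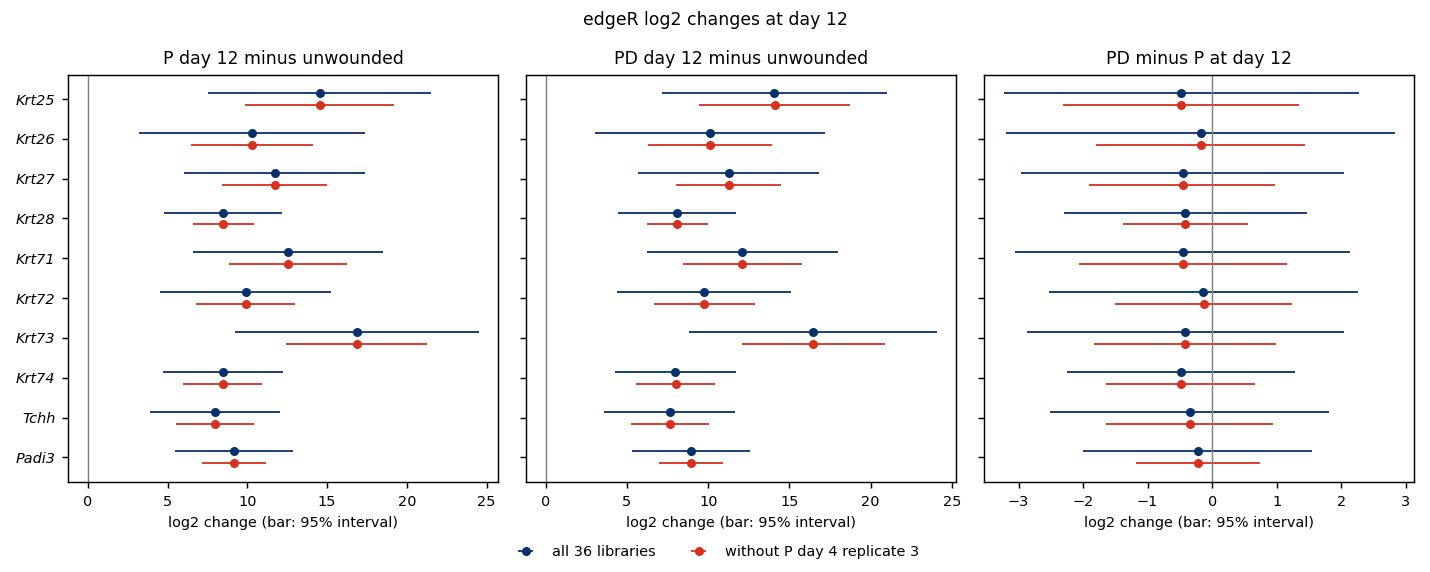
Fitted edgeR log2 change of each gene for P day 12 and PD day 12 against unwounded skin and for PD against P at day 12, with approximate 95% intervals worked back from the F statistic, from all 36 libraries (blue) and without P day 4 replicate 3 (red). The first 2 panels lie wholly above 0 and every interval of the third spans 0; Krt73 has 0 unwounded counts, so its fitted change in the first 2 panels depends on the fit and is no bound.

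At day 2 none of the 10 genes was called against unwounded skin in either arm by edgeR, where 41.3% of genes were called in P and 39.4% in PD in either direction, and 0 of the 10 had an unadjusted p under 0.05. DESeq2 called 2 of 10 in P and 1 of 10 in PD. An edgeR fit of only the P day 2 and unwounded libraries called 48.7% of its tested genes, and 4 of the 10 passed its filter. In it, P day 2 wounds had lower Krt28 (log2 change -1.65, adjusted p = 0.00672) and higher Padi3 (1.20, adjusted p = 0.0164). Those groups did not overlap for either gene, with means of 0.297 against 0.961 CPM for Krt28 and 0.747 against 0.33 CPM for Padi3. At this level the values rest on 51 and 93 counts for Krt28 and on 131 and 33 for Padi3.

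Day 4 in arm P turned on replicate 3. With it, edgeR called all 10 genes higher than in unwounded skin (23.6% of genes were) and higher than at day 2 (5.76%), and 0 of 10 were called between day 4 and day 12 (11.2% called higher; 3 of the 10 had an unadjusted p under 0.05). For that last step DESeq2 also called 0 of 10 and limma-voom with sample weights called 10. Without replicate 3, in edgeR, 1 of 10 was called against unwounded skin (22.7%), 0 of 10 against day 2 (3.87%) and 10 of 10 rose from day 4 to day 12 (14.2%), by log2 changes from 7.16 to 13.87. Replicate 3 exceeded all 6 P day 12 wounds for Krt26 (181 against at most 85.3 CPM), Krt72 (380 against at most 169 CPM) and Tchh (2795 against at most 2139 CPM), and lay inside their range for the other 7 genes. In some other genes the same library was like day 4. Its summed neutrophil markers (S100a8, S100a9, Csf3r and Retnlg) were 2493 CPM, within the 2231 to 8629 CPM of the P day 4 group and above the day 12 maximum of 421 CPM. Its summed epidermal keratinocyte markers, at 28374 CPM, were also above P day 12 (at most 14689 CPM). Summed macrophage markers (Adgre1, Cd68, Csf1r and Lyz2) were 830 CPM and summed skeletal muscle markers 3629 CPM. Both sums were the lowest of P day 4 and lay within P day 12 (131 to 1549 and 1366 to 22024 CPM). The summed hair shaft keratins of replicate 3 were 2187 CPM, where the median of P day 4 was 10.3 CPM and P day 12 wounds held 59.5 to 5143 CPM. Its summed melanocyte markers were 85.3 CPM, the highest of P day 4 and below the lowest P day 12 wound at 106 CPM. The part of these cell types in the result was not tested.

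In PD wounds at day 4, edgeR called 0 of 10 genes against unwounded skin (47.1% of genes were called in either direction) and 0 of 10 against day 2 (4.26%), with 0 and 1 unadjusted p under 0.05. DESeq2 called 2 of 10 and 3 of 10, and edgeR on only the compared libraries called 1 (Padi3, log2 change 1.62, adjusted p = 0.0121) and 0 of the 4 that passed its filter. Those edgeR fits called 46.1% and 2.16% of their tested genes. In the fit without P day 4 replicate 3, which is in neither comparison but adds to the shared spread, Krt25 and Krt73 were called against unwounded skin (25.6% of genes called higher), and Krt25, Krt28 and Krt73 against day 2 (2.85%). The Krt25 value rested on PD day 4 replicate 2. That library held Krt25 at 10.8 CPM, Krt71 at 13.5 CPM, Krt27 at 3.84 CPM and Krt73 at 2.67 CPM, where the other 5 PD day 4 wounds reached at most 0.122, 0.642, 0.857 and 0.367 CPM. Without it the log2 change of Krt25 from unwounded skin was -0.45.

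Between the arms, edgeR on all 36 libraries called none of the 10 genes at any day. DESeq2 called 1 of 10 at day 2, 10 of 10 at day 4 and 0 of 10 at day 12, and edgeR called up to 7 at day 4 with 1 other P day 4 library left out, replicate 3 being kept in each of these. The share of all genes called in the edgeR fits with 1 library left out is not given here. At day 12 all 10 fitted differences of PD minus P lay between -0.48 and -0.14 on the log2 scale (adjusted p from 0.943 to 0.986), with intervals as wide as -3.23 to 2.27 for Krt25 and -2.30 to 1.47 for Krt28. These intervals are approximate, but they leave room for differences of several-fold in either direction. At day 2 the 10 differences had adjusted p of 1, with 0 unadjusted p under 0.05 there and at day 12. At day 4 the fitted differences ran from -13.12 to -4.37 (adjusted p from 0.0808 to 0.204, and all 10 unadjusted p under 0.05), but without P day 4 replicate 3 they ran from -0.98 to 1.88. Over all genes, edgeR called 0% between the arms at day 2, 0% at day 4 and 0% at day 12, where 793, 2369 and 1022 genes had an unadjusted p under 0.05. DESeq2 called 24, 184 and 0 genes, and limma-voom with sample weights 1, 2074 and 0. For the change of the difference from day 2 to day 4, from day 4 to day 12 and from day 2 to day 12, edgeR called 0 of 10 genes each time (0% of all genes), with 5, 10 and 0 unadjusted p under 0.05, and 0, 0 and 0 without replicate 3. DESeq2, with replicate 3 kept, called 5, 7 and 1 of 10.

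The order of levels at day 12 was compared per kilobase of exon over the 12 wounds. Krt71 led with a mean of 1012 CPM per kb, followed by Krt25 at 741 and Krt27 at 387, and each of these 3 was above the next gene in 12 of 12 libraries. Tchh (205 CPM per kb), Krt73 (194) and Krt28 (188) were not separated, Tchh exceeding Krt73 in 5 of 12 libraries and Krt73 exceeding Krt28 in 9 of 12. Padi3 (52.8) was above Krt72 (47) in 9 of 12, and Krt26 (15.6) above Krt74 (12.5) in 6 of 12. The genes differed in how far they varied between wounds: the highest day 12 library exceeded the lowest 9.38-fold for Krt73 and 12.9-fold for Krt28, but 98.6-fold for Tchh and 108-fold for Krt72.

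That difference in range showed as differences in composition between wounds, with Krt28 and Krt73 taking their largest shares in the 2 wounds with the lowest sums. In the lowest wounds, P replicate 2 and PD replicate 5, Krt28 made up 11% and 17% of the per-kilobase sum and Krt73 14% and 18.2%. In the other 10 day 12 wounds Krt28 made up 4.35% to 9.58% and Krt73 4.74% to 11%. The share of Tchh ran the other way in PD replicate 5, at 1.87%, the lowest of the 12, and was highest in P replicate 1 at 12.2%. Krt27 took 5.12% and 5.62% in PD replicates 3 and 4 and 6.68% in PD replicate 5, below the 11.4% to 19.9% of the other 9 wounds. Composition did not follow the sum throughout. PD replicates 1 and 3 had sums of 1068 and 1022 CPM per kb. In these, Krt28 made up 5.36% and 9.58%, Krt73 5.18% and 11%, Tchh 8.26% and 4.87%, and Krt27 19.9% and 5.12%. Type I keratins made up 46.4% to 54.5% of the keratin sum in all 12 wounds.

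**Figure D3:**
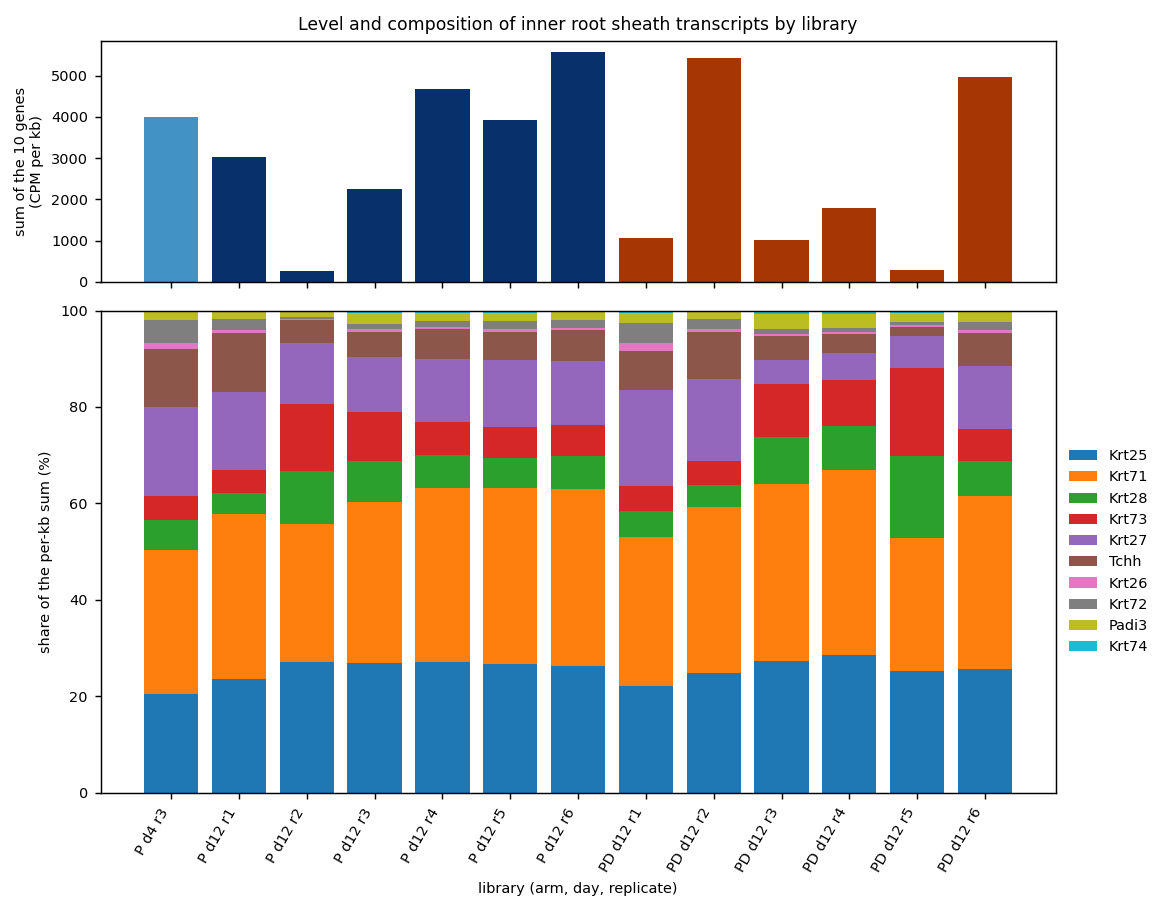
Upper panel, sum of the 10 genes in CPM per kb of exon; lower panel, share of each gene in that sum in percent, for P day 4 replicate 3 and the 12 day 12 libraries (d, day; r, replicate). Krt28 and Krt73 take their largest shares in P day 12 replicate 2 and PD day 12 replicate 5, the libraries with the lowest sums.

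Some pairs of genes varied less in ratio than others across these differences. Over the 12 day 12 wounds, the ratio of Krt25 to Krt71 in CPM stayed between 0.633 and 0.86, and that of Krt28 to Krt73 between 0.585 and 0.805. By the SD of the log2 ratio (0.14 and 0.15) these pairs varied least of the 45. Each joins a type I gene on chromosome 11 with a type II gene on chromosome 15. Even so, Krt71 was 1.16 and 1.2 times Krt25 in P replicate 2 and PD replicate 5, the wounds with the lowest sums. In the other day 12 wounds it was 1.36 to 1.58 times Krt25. The ratio of Krt26 to Krt72 ran from 0.505 to 1.14, and that of Krt27 to Tchh from 0.28 to 0.951. By Pearson's r of log2 CPM, the closest partners were Krt25 and Krt71 (0.999), Krt28 and Krt73 (0.994), Krt26 and Krt72 (0.993), Krt74 and Padi3 (0.987) and Krt27 and Tchh (0.974), and the lowest of the 45 pairs was 0.805. These are descriptions over 12 libraries that share depth and tissue content. P day 4 replicate 3 had a Krt25 to Krt71 ratio of 0.623 and a Krt28 to Krt73 ratio of 0.904, both just outside the day 12 ranges.

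**Figure D4:**
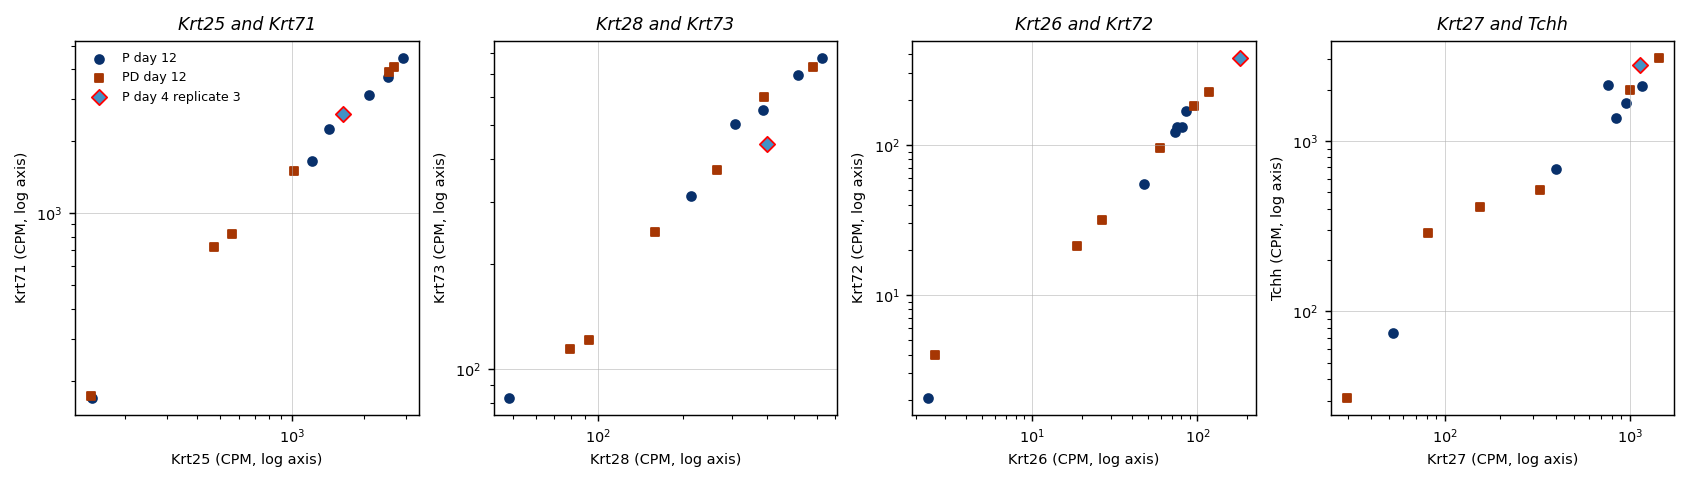
Levels in CPM on log axes of 4 pairs of genes in the 12 day 12 libraries (circles, P; squares, PD) and P day 4 replicate 3 (red-edged diamond). Krt25 and Krt71 lie close to a single line with ratios from 0.633 to 0.86 at day 12, and Krt27 and Tchh scatter more, with ratios from 0.28 to 0.951.

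Other genes of the growing follicle were read from lists chosen with earlier results of these data known, and the same 23.7% (P) and 24.2% (PD) of genes called higher at day 12 apply to them, as do the 20% (P) and 20.7% (PD) called lower. Of 15 hair shaft keratins, which form the fibre inside the sheath, 14 were matched and tested, and 14 of 14 rose in both arms (median log2 change 9.82 in P and 9.66 in PD). Krt35 rose by 11.85 ± 2.37 and Krt31 by 9.70 ± 2.32 on the log2 scale in P. The lowest P day 12 value was 46.1 CPM for Krt35 (at most 0.21 CPM in unwounded skin) and 0.839 CPM for Krt31 (at most 0.561 CPM). Summed shaft keratins in P replicate 2 were 59.5 CPM, above the 13.4 to 16.9 CPM of unwounded skin, and Krt25 was at 146 CPM in the same wound. At P day 4, 10 of the 14 were called higher with replicate 3, and 1 higher and 2 lower without it (19.6% of all genes were then called lower).

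Genes of the deimination and crosslinking enzyme families moved in both directions. Of 8 such enzymes 7 were tested, and 4 rose and 2 fell at day 12 in each arm. Tgm3, a transglutaminase that crosslinks trichohyalin, rose by 5.16 ± 1.23 on the log2 scale in P, and Padi4, a deiminase of neutrophils, by 6.29 ± 0.87. Padi2, a deiminase also made in muscle, fell by 4.17 in P, from 182 ± 29.8 CPM (SD, n = 3) to 10.1 ± 4.79 CPM (SD, n = 6), and summed skeletal muscle markers stood at 44281 to 72056 CPM in unwounded skin against 1366 to 22024 CPM in P day 12. The part of muscle in that value was not tested. Padi4 and Tgm3 were already higher at P day 4 without replicate 3 (log2 changes of 5.41 ± 0.82 and 4.92 ± 1.26), where of the 10 sheath genes Krt73 alone was called. Summed neutrophil markers were 0.576 to 2.43 CPM in unwounded skin, 2231 to 8629 CPM at P day 4 and 11.4 to 421 CPM at P day 12, and their part in the Padi4 value was not tested. S100a3, a deimination substrate of the hair cuticle, rose by 9.04 ± 1.97 in P and 9.0 ± 1.97 in PD. Among 6 fused-type S100 relatives of Tchh, 3 rose in P, and 3 rose and 1 fell in PD. Rptn (repetin) rose by 7.48 ± 1.94 in P, and filaggrin (Flg) was not called (2.52 ± 1.17, adjusted p = 0.0798).

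Of 12 regulators of the sheath and hair matrix, 9 rose and 1 fell in each arm at day 12. Dlx3, a homeobox factor of the hair matrix, rose by 4.16 ± 0.96 on the log2 scale in P, from 17.9 ± 4.61 CPM (SD, n = 3) to 320 ± 173 CPM (SD, n = 6). Gata3, which specifies the sheath but is also made in epidermis and T cells, was the one that fell, by 1.07 in P and 1.04 in PD. Of 12 hair growth signals, 6 rose and 1 fell in P, and 7 rose and 1 fell in PD. The hedgehog target Gli1 rose by 2.27 ± 0.43 in P and Ptch1 by 0.86 ± 0.26, and the Wnt target Axin2 was not called (-0.38 ± 0.21, adjusted p = 0.141). Of 8 follicle stem cell genes, 1 rose and 3 fell in P and 0 rose and 3 fell in PD, with Krt15 lower by a log2 change of -2.48 ± 0.46 in P. Of 6 companion layer and cell-contact genes, 3 rose in P and 1 in PD. By edgeR, no gene of these lists was called between the arms at day 12.

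The genes most like the 10 over all 36 libraries, by r with their mean standardised log2 CPM, were Krt35 (0.982), Crnn (0.982), Krt82 (0.982), Gm36101 (0.981), Gm49425 (0.981), Krtap7-1 (0.98), S100a3 (0.98) and Lyg2 (0.979). Without P day 4 replicate 3, 7 of these 8 remained, with Krtap1-5 (0.978) in place of Lyg2. Since the libraries fall into a low and a high cluster, these values mostly describe that division. Over the 12 day 12 wounds alone the closest were Gm39115 (0.995), Gm29735 (0.992), Gm9508 (0.99), Gm18596 (0.99), Gm3250 (0.99), Gm40460 (0.989), Gm9639 (0.988) and Gm47955 (0.988). The 8 genes of the second set had 0 CPM in unwounded skin and mean levels of 7.96 to 70.4 CPM in P day 12.

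Reads shared between relatives could blur single values. Of the 50-base windows of each transcript, 10.9% of Krt25 (shared with Krt15, Krt27 and Krt28) and 11.1% of Krt27 (shared with Krt25 and Krt28) also occurred in another gene, and at most 2.78% of each of the other 8, with 0 for Krt26 and Tchh. Tchh overlaps 3 antisense transcripts and Padi3 overlaps 1, and the strand setting of the counting is not given in the sources used here. Of these only Gm37245, antisense to Tchh, was in the count files, with at most 12 counts in a library. Krt74 overlaps 1 non-coding gene on its own strand, also named Krt74, which was not in the count files.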

How the data were processed

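The authors deposited whole-number read counts per gene for each library, without normalization. Per the labels' protocols, RNA was extracted with TRIzol and prepared with a stranded mRNA kit. Per the submitters' processing notes, Trimmomatic, HISAT2 2.1.0, SAMtools 1.9, HTSeq and GRCm39 were used; strand setting and annotation release are not given in the sources used here. The 10 genes and all lists were chosen with earlier results of these data known. Of 55414 identifiers, 54749 (98.8%) were in GENCODE vM39, which gave positions and exon lengths.

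The test was the robust quasi-likelihood test of edgeR 4.0.16 (R 4.3.3) on TMM-scaled counts, fitting 7 group means to all 36 libraries. filterByExpr (minimum count 10, minimum total 15) kept 20657 genes, over which p-values were Benjamini-Hochberg adjusted, and a gene was called under 0.05. A group with 0 counts was set at 3 counts over the group, and such bounds cover counting error only. No 2 replicates agreed within sampling noise (smallest chi-square per degree of freedom 12.3). Correlations used log2 CPM with a prior count of 2. Named were all 10 genes, the 8 genes most like them over 36 and over 12 libraries, and up to 4 genes of each list by mean CPM. Alternatives were DESeq2 1.42.0 (test and size factors), limma-voom 3.58.1, other filters and fits, and leaving out each library. A term for replicates 1 and 2, and the fit without P day 4 replicate 3, were added after seeing the data.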

Additional observations from a re-analysis of the deposited data

Results flagged for a closer look

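In 20 of the 56 sets of a gene and a group of 5 or 6 libraries, the highest library lay further from the rest than Dixon's 95% critical value allows. For normally distributed values chance flags about 1 in 20 groups, but these were CPM values with many zeros, so that rate does not apply. A group with counts in a single library is always flagged. The 10 genes vary together, so the 20 are not independent. Of these, 10 were P day 4 replicate 3, at 1623 CPM for Krt25, 181 for Krt26, 1140 for Krt27, 399 for Krt28, 2607 for Krt71, 380 for Krt72, 441 for Krt73, 20.6 for Krt74, 2795 for Tchh and 234 CPM for Padi3.

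PD day 4 replicate 2 was far from its group for 5 keratins, at 10.8 CPM for Krt25 (311 counts), 3.84 for Krt27 (111 counts), 13.5 for Krt71 (389 counts), 0.208 for Krt72 (6 counts) and 2.67 CPM for Krt73 (77 counts). The remaining 5 rested on 6 counts or fewer each. They were P day 2 replicate 1 at 0.13 CPM for Krt25, 0.0216 for Krt72 and 0.108 for Krt73, PD day 2 replicate 4 at 0.0305 CPM for Krt25, and PD day 2 replicate 1 at 0.0222 CPM for Krt72.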

How the results depend on the processing

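Of 1650 log2 changes recomputed under the alternatives, 1522 kept their direction and side of the threshold, 33 were no longer called, 73 became called and 22 changed sign. All 10 genes stayed called at PD day 12 against day 4 under each alternative. At day 12 against unwounded skin they stayed called in both arms under each alternative but 4: with no filter, and with any 1 unwounded replicate left out, 9 were called in each arm, without Krt26. P day 4 replicate 3 was kept in those 4. With no composition factor the share of higher among all calls at day 12 moved from 54.2% to 73% in P and from 53.9% to 71.7% in PD, and the median of all genes to 0.372 and 0.330. Depth limits the early values, where single genes rest on a few counts.

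Counts of the 10 genes called, P day 4 replicate 3 being kept, moved as follows, and the cause was not tested. Using only the libraries compared, where fewer of the 10 passed the filter, gave 2 of 4 at P day 2, 0 of 7 at P day 4 and 1 of 4 at PD day 4 against unwounded skin, and 0 of 5 at P day 4 against day 2. That setting called 48.7%, 44.7%, 46.1% and 6.44% of its tested genes in these comparisons. DESeq2 gave 2 at P day 2, 1 at PD day 2 and 2 at PD day 4 against unwounded skin (44.4%, 42.5% and 49.6% of all genes called), 1 and 10 between the arms at days 2 and 4 (0.116% and 0.891%), 3 at PD day 4 against day 2 (7.97%), and 5, 7 and 1 for the changes in PD minus P from day 2 to 4, 4 to 12 and 2 to 12 (0.378%, 0.431% and 0.102%). limma-voom with sample weights, which can down-weight single libraries, gave 1 at P day 4 against unwounded skin, 0 against day 2 and 10 at P day 12 against day 4 (65.5%, 30% and 51.8% of all genes); its log2 changes at P day 4 against unwounded skin were -1.60 for Krt26, -2.32 for Krt72 and -0.80 for Krt74, and 1.65 for Krt74 between the arms at day 4. The term for replicates 1 and 2 gave 1 at P day 12 against day 4 (28.8% of all genes), and 0.06 for Krt26 and 0.06 for Krt72 between the arms at day 12. With the replicate number as a block, 4 of the 10 were called at P day 12 against day 4 (26.5% of all genes). The numbers were not taken to pair the samples, since not every correlation of same-numbered deviations was over 0.1 (12 of 16 were). They ran from -0.253 to 0.463 at day 2, -0.138 to 0.209 at day 4 and -0.105 to 0.535 at day 12. The PD library best correlated with a P library had its number in 2 of 5, 0 of 5 and 2 of 6 cases. The best P library for each PD library was not computed, and these values do not exclude a pairing.

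Leaving out 1 library at a time, the genes called ran from 1 to 10 at P day 4 against unwounded skin, 0 to 10 at P day 4 against day 2, 0 to 10 at P day 12 against day 4, 0 to 2 at PD day 4 against unwounded skin, 0 to 3 at PD day 4 against day 2 and 0 to 7 between the arms at day 4. P day 4 replicate 3 gave the changed end of each except the last, where leaving out P day 4 replicate 1, 2, 4 or 5 gave 6 or 7. Without P day 12 replicate 2, 1 gene was called at P day 12 against day 4. For fits that left out a library other than P day 4 replicate 3, the share of all genes called is not given here. Differences between the arms at day 4 ran from -12.60 to 1.88 for Krt25, -9.25 to 1.42 for Krt27, -5.90 to 0.34 for Krt28, -10.16 to 1.47 for Krt71, -9.61 to 0.06 for Krt73 and -4.69 to 0.43 for Krt74, and at day 12 from -0.59 to 0.09 for Krt26, -0.61 to 0.14 for Krt72 and -0.54 to 0.03 for Padi3. Against unwounded skin, Krt26 ran from -3.58 to 10.23 and Krt72 from -0.33 to 10.17 at P day 4, and Krt25 from -0.45 to 6.04 at PD day 4.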
